A study of Mus musculus with 9 samples.

Results

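Transcripts of 40 mitosis genes, which act from G2 through the spindle, the kinetochore and cytokinesis, were followed in the livers of db/db mice. They were taken by symbol, and all 40 were found among the 28517 genes of the table. All 40 also passed the filter on low counts, which kept 18142 genes. The mice of every group lack a working leptin receptor, which leads to obesity and diabetes when untreated. For 12 weeks they received FGF19ΔKLB, FGF19WT or PBS as vehicle, and each group holds 3 liver libraries. FGF19 is a gut hormone that acts on hepatocytes through FGFR4 and its co-receptor β-klotho (Klb), and the title of the series poses the question of its tumour risk. FGF19ΔKLB is a modified form, and no label spells out its modification. Age, sex and the number of animals behind a library are not given in the sources used here, so p-values measure the spread between these libraries, which may be technical.

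Most hepatocytes of an adult liver rest outside the cell cycle, and mitosis genes are therefore nearly silent there. In dividing cells they are switched on together late in the cycle, through MuvB complexes that carry B-Myb and FoxM1 and bind promoters at an element called the CHR, often with CCAAT boxes nearby that bind NF-Y. In resting cells the DREAM complex holds the same promoters off. Whole liver was sequenced, so more dividing cells and more RNA per dividing cell cannot be told apart.

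Of the members named in full below and matched, the first 6 in list order are shown by their promoter stretches. Most members matched hold one or both of these elements, and the stretches let their places be compared. Each is the 150 bases before the RefSeq start on GRCm38.p6, 5′ to 3′ on the gene's own strand, with CHR letters (TTTGAA, or TTCAAA on the other strand) and CCAAT letters (CCAAT or ATTGG) in capitals. They lie at chr7:135716380-135716529 (minus strand, Mki67), chr11:99024190-99024339 (minus, Top2a), chr10:69352913-69353062 (minus, Cdk1), chr13:100786487-100786636 (minus, Ccnb1), chr9:70421555-70421704 (minus, Ccnb2) and chr7:122159285-122159434 (plus, Plk1).
Mki67: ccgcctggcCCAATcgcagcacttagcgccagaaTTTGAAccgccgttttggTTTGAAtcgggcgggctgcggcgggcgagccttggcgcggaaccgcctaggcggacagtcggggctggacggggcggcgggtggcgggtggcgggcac
Top2a: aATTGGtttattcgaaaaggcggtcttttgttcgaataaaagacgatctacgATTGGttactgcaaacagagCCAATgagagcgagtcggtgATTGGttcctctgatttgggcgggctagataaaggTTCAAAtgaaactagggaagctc
Cdk1: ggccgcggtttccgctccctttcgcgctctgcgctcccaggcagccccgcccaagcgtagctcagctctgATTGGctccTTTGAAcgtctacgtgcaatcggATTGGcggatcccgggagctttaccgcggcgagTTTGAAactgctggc
Ccnb1: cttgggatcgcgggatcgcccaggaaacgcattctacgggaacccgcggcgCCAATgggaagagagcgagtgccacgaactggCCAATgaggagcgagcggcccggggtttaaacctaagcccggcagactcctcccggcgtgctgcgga
Ccnb2: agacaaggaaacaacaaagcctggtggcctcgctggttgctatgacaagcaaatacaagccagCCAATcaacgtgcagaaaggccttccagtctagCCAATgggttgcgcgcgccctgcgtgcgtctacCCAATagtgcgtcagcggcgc
Plk1: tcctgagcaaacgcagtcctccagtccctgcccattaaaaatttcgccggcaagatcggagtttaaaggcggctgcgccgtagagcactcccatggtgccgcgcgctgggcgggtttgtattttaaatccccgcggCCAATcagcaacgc

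RefSeq windows of 300 bases, from 250 before to 50 after the start, matched 33 members with 36 windows. Ccna2, Foxm1, Aurkb, Incenp, Tpx2, Pbk and Kif20a were not matched. TTTGAA on either strand stood in 29 of the 36 windows (80.6%), against 17.9% of all 32851 windows. CCAAT on either strand stood in 26 windows (72.2%), against 37.4% of all. Both stood in 23 (63.9%), against 6.95% of all, and the letters of the motifs do not overlap each other. Within the 250 bases before the start alone, TTTGAA stood in 14 windows (38.9%, against 16.0% of all), so many matches lie just past the start, as in Plk1, where the first base of the match is position 31. In Ccnb2 the matches start at positions -167 and 5, outside the stretch shown. The Ccnb1 window holds CCAAT letters and no TTTGAA. Of the 33 matched members, 12 lacked the pair. These are matches of letters, not measured binding.

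Levels are given in CPM, which relate counts to library size after TMM scaling and can be compared between libraries and not between genes. Depth was even, with 65.1 to 73.3 M counts per library, but the members sit low. At least 10 counts in all 3 libraries were reached by 31 members with FGF19ΔKLB, by 36 with FGF19WT and by 29 with vehicle. Melk, Pbk, Bub1, Ttk, Ndc80 and Cep55 had 36 counts or fewer summed over vehicle, so their fitted folds against vehicle rest on few counts. They enter the counts, ranges and medians over the 40, and for each comparison the counts without them are given too. The hepatocyte gene Alb alone took 8.6% to 21.1% of the counts.

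The 3 FGF19WT libraries were not alike in these genes. The 40 members summed to 27.3, 56.0 and 73.9 CPM in FGF19ΔKLB libraries 1 to 3, to 37.6, 326 and 413 CPM in FGF19WT libraries 1 to 3, and to 24.1, 26.9 and 21.6 CPM in vehicle libraries 1 to 3. The vehicle libraries lay close together, while both treated groups were spread. In FGF19WT libraries 2 and 3, 39 of the 40 members lay above all other 7 libraries, Foxm1 being the exception, where 18.4% of all tested genes did so. These libraries were set apart because they had the highest sums of these same members. A high count is thus partly built in, and the share of all genes is not a like yardstick.

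**Figure D1:**
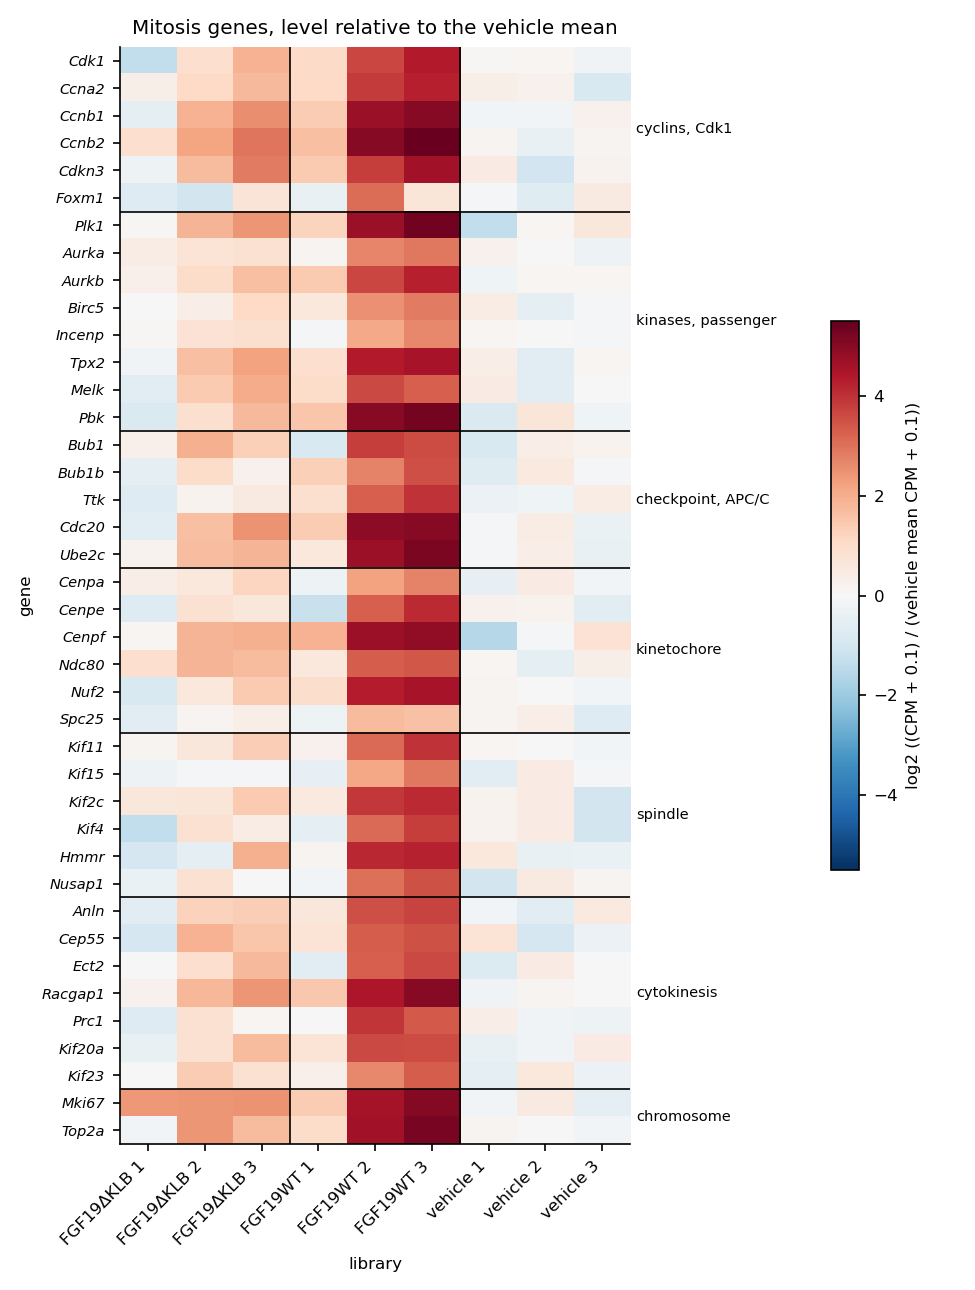
Level of each mitosis gene (rows, by role) in each library (columns), as log2 of CPM + 0.1 over the vehicle mean + 0.1. FGF19WT libraries 2 and 3 are dark red in nearly every row, FGF19ΔKLB libraries 2 and 3 are paler red, and FGF19ΔKLB library 1 is mixed, from -1.35 (Kif4) to 2.40 (Mki67). Its median is -0.23, and 8 members lie above all vehicle libraries there, against 31.2% of all tested genes.

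Relative to the vehicle mean, the median member stood at a log2 level of -0.23, 0.98 and 1.59 in FGF19ΔKLB libraries 1 to 3 and of 0.68, 3.65 and 3.98 in FGF19WT libraries 1 to 3. All 3 vehicle libraries were exceeded by 8, 34 and 34 members in FGF19ΔKLB libraries 1 to 3, where 31.2%, 30.5% and 31.7% of all tested genes did so. In FGF19WT libraries 1 to 3 they were exceeded by 26, 40 and 40 members, against 28.3%, 36.3% and 37.9% of all tested genes. FGF19ΔKLB library 1 was thus below the background share for these genes, and FGF19WT library 1 was above it. FGF19ΔKLB libraries 2 and 3 both lay above FGF19ΔKLB library 1 and all vehicle libraries in 30 of 40 members, against 9.32% of all genes. This split too follows the medians of these same members, so a high count is partly built in.

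**Figure D2:**
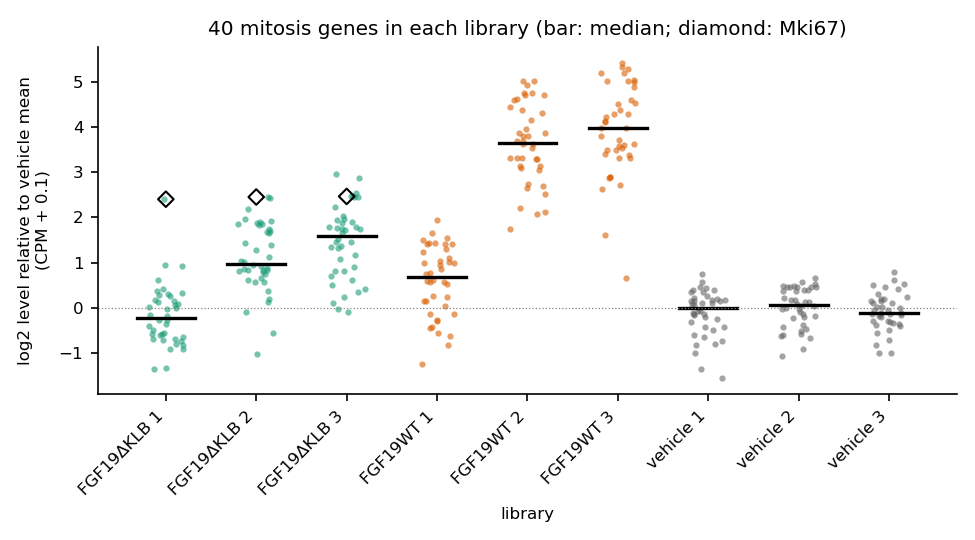
Each point is 1 of the 40 mitosis genes in 1 library, on the log2 scale relative to the vehicle mean, and bars are medians. Medians reach 3.65 and 3.98 in FGF19WT libraries 2 and 3, and the diamond for Mki67 lies at the same height in all FGF19ΔKLB libraries while the medians there run from -0.23 to 1.59.

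With FGF19WT against vehicle, all 40 members had positive changes, with a median log2 fold change of 3.78 and a range of 1.3 (Spc25) to 5.80 (Pbk), where the median of all tested genes was 0.0. No member passed edgeR's quasi-likelihood test over 9 libraries (0 of 40 called, against 0.0276% of all genes called higher). At an unadjusted p under 0.05 stood 39 of 40, against 11.7% of all genes. Without the 6 members of lowest vehicle counts, all 34 were positive, 33 stood at an unadjusted p under 0.05 and the median was 3.66. The lowest adjusted p was 0.0986, for Mki67. The DESeq2 Wald test called 35 over 9 libraries (against 6.29% of all genes) and 33 of the 38 tested over 6 (against 4.14%), edgeR over 6 libraries called 0 (against 0.0%), and limma on log2(FPKM + 1) called 0 of the 32 members it tested (against 0.0955%). In simulated counts DESeq2 exceeded a limit on the share of false calls, set looser than the threshold, and edgeR and limma did not. The count by DESeq2 is given as an alternative only. The simulation gave each gene the same spread in every group, unlike these libraries, so it cannot decide between the tools here. Without FGF19WT library 1, edgeR called 38 of 40 (against 13.1%), with 2 libraries left in that group. That library was the lowest of its group in these same genes, so more calls without it are partly built in. Leaving out any other single library gave 0 calls. Without FGF19WT libraries 2 and 3 the median was 0.95, with 30 members positive and 10 negative. That group is then 1 library, assumed to vary like the other groups, so the 0 calls there (against 0.0553%) say little. The groups did not overlap in 26 of 40 members, against 11.0% of all genes.

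With FGF19ΔKLB against vehicle, the median log2 fold change was 1.11, and 38 of 40 were positive, Foxm1 and Kif15 being negative. None was called by edgeR over 9 libraries (0.0% of all genes were called higher), and 4 stood at an unadjusted p under 0.05 (4.64% of all), Ccnb2, Mki67, Racgap1 and Ndc80. Ndc80 is one of the 6 members of lowest vehicle counts, and without those the median was 1.07 and 32 of 34 were positive. The error of the fit over 9 libraries takes in the spread of the FGF19WT libraries, which are not part of this comparison. In edgeR's fit of the 6 libraries of these groups, 12 of the 38 members tested stood at an unadjusted p under 0.05, all higher. The share of all genes at that p is not given for that fit. Mki67 alone was called there (0.894% of all genes were called higher). It was also the 1 call without FGF19WT library 1 (0.478% of all) and without FGF19WT libraries 2 and 3 (0.804% of all). DESeq2 called Mki67 over 9 libraries (1.0% of all), and Ccnb2, Mki67 and Racgap1 over 6 (3.83% of all), and limma on log2(FPKM + 1) called 0 (0.0393% of all). The groups did not overlap in 8 members, Aurka, Aurkb, Ccnb2, Kif11, Kif2c, Mki67, Ndc80 and Racgap1, against 12.4% of all genes.

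**Figure D3:**
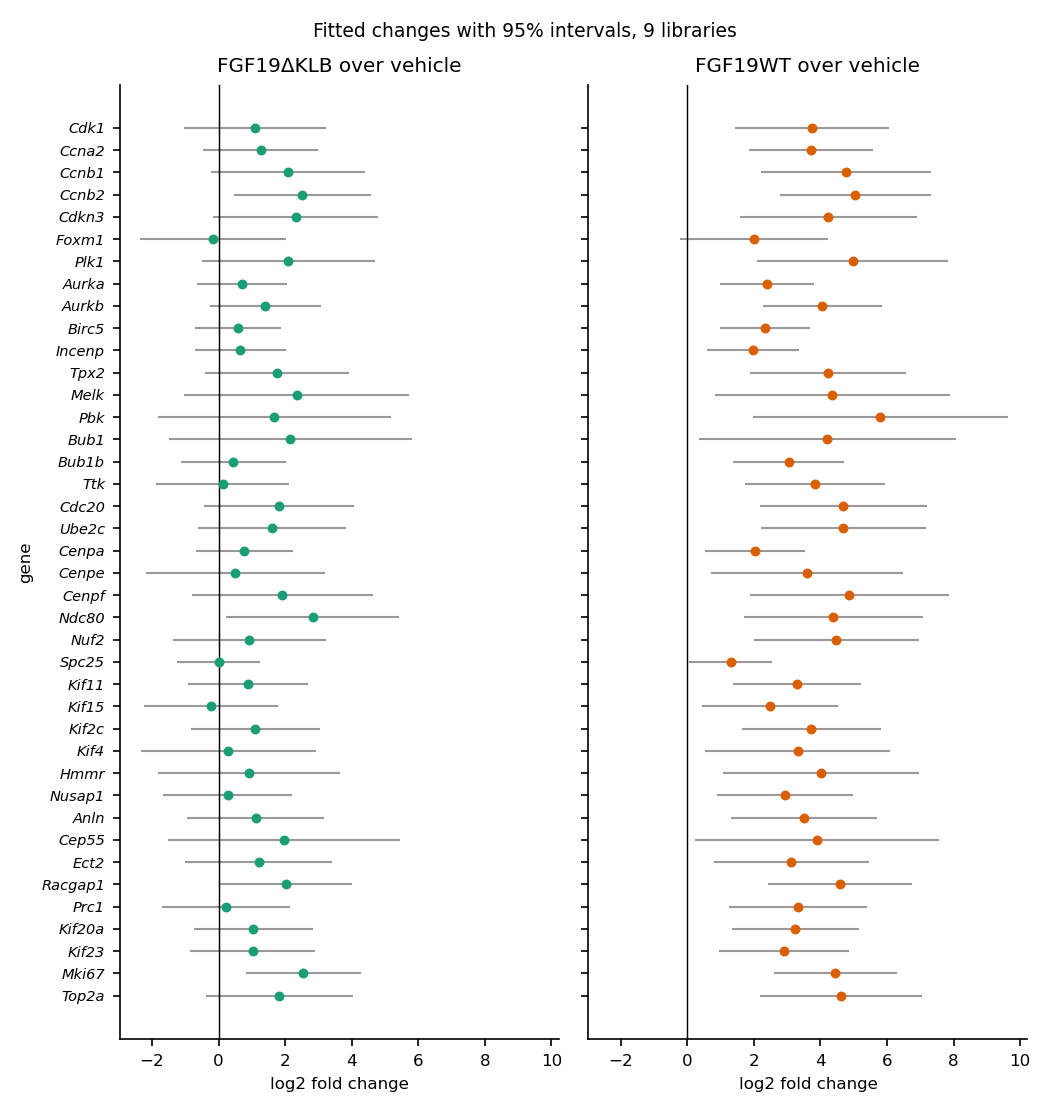
Fitted log2 fold changes (points) with 95% intervals (lines) from edgeR over 9 libraries, for FGF19ΔKLB over vehicle (left) and FGF19WT over vehicle (right). Nearly all FGF19WT intervals lie above 0, with a median of 3.78, and most FGF19ΔKLB intervals span 0, with a median of 1.11.

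Chromosome proteins come first, since Mki67 gave the lowest adjusted p. Mki67, the coat protein of mitotic chromosomes used as a proliferation marker, had 5.87, 6.07 and 6.13 CPM in FGF19ΔKLB libraries 1 to 3, 2.92, 27.2 and 37.1 CPM in FGF19WT libraries, and 0.908, 1.48 and 0.704 CPM in vehicle libraries. It was even across the FGF19ΔKLB libraries, and neither treated group overlapped vehicle. Against vehicle, its log2 fold change with FGF19ΔKLB was 2.55 (SE 0.75, edgeR adjusted p = 0.41) over 9 libraries and 2.54 (SE 0.31, adjusted p = 0.018) over 6. The call over 6 libraries was lost without FGF19ΔKLB library 1 (adjusted p = 0.0565) and without vehicle library 1 (0.0757). Top2a, the topoisomerase that untangles sister chromatids, had 0.499, 3.50 and 2.11 CPM in FGF19ΔKLB libraries, 1.26, 16.4 and 24.6 CPM in FGF19WT libraries, and 0.641, 0.556 and 0.512 CPM in vehicle libraries. Unlike Mki67, it was lower in FGF19ΔKLB library 1 than in any vehicle library. With FGF19WT its change was 4.62 (SE 1.07, edgeR adjusted p = 0.125).

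Cyclins and their kinase were highest in FGF19WT libraries 2 and 3. Ccnb2, a B-type cyclin that activates Cdk1, had 0.763, 1.97 and 3.46 CPM in FGF19ΔKLB libraries, 1.33, 14.8 and 19.5 CPM in FGF19WT libraries, and 0.414, 0.249 and 0.409 CPM in vehicle libraries. Both treated groups lay above vehicle in every library, with log2 fold changes of 2.52 (SE 0.91, edgeR adjusted p = 0.51) for FGF19ΔKLB and 5.04 (SE 1.0, adjusted p = 0.112) for FGF19WT. Ccnb1, its partner cyclin, had 0.176, 1.35 and 2.16 CPM in FGF19ΔKLB libraries, 0.923, 10.2 and 12.3 CPM in FGF19WT libraries, and 0.254, 0.249 and 0.358 CPM in vehicle libraries. Cdk1, the kinase that drives entry into mitosis, had 0.220, 1.42 and 2.90 CPM in FGF19ΔKLB libraries, 1.55, 10.3 and 16.5 CPM in FGF19WT libraries, and 0.748, 0.761 and 0.614 CPM in vehicle libraries. For both genes FGF19ΔKLB library 1 lay below every vehicle library, and FGF19ΔKLB libraries 2 and 3 lay above. Ccna2, the cyclin of S phase and G2, and Cdkn3, a phosphatase acting on Cdk1 and Cdk2, also had their highest levels in FGF19WT libraries 2 and 3.

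Foxm1, the transcription factor that drives many of the other members, was the exception. It had 0.337, 0.254 and 1.06 CPM in FGF19ΔKLB libraries, 0.440, 6.0 and 1.03 CPM in FGF19WT libraries, and 0.587, 0.351 and 0.921 CPM in vehicle libraries. It was high in 1 library only, FGF19WT library 2, and overlapped between all groups, with a change of 2.0 for FGF19WT (SE 0.98, edgeR adjusted p = 0.307). Tex52, which overlaps Foxm1 on the same strand, was at or below 0.276 CPM in all 9 libraries.

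**Figure D4:**
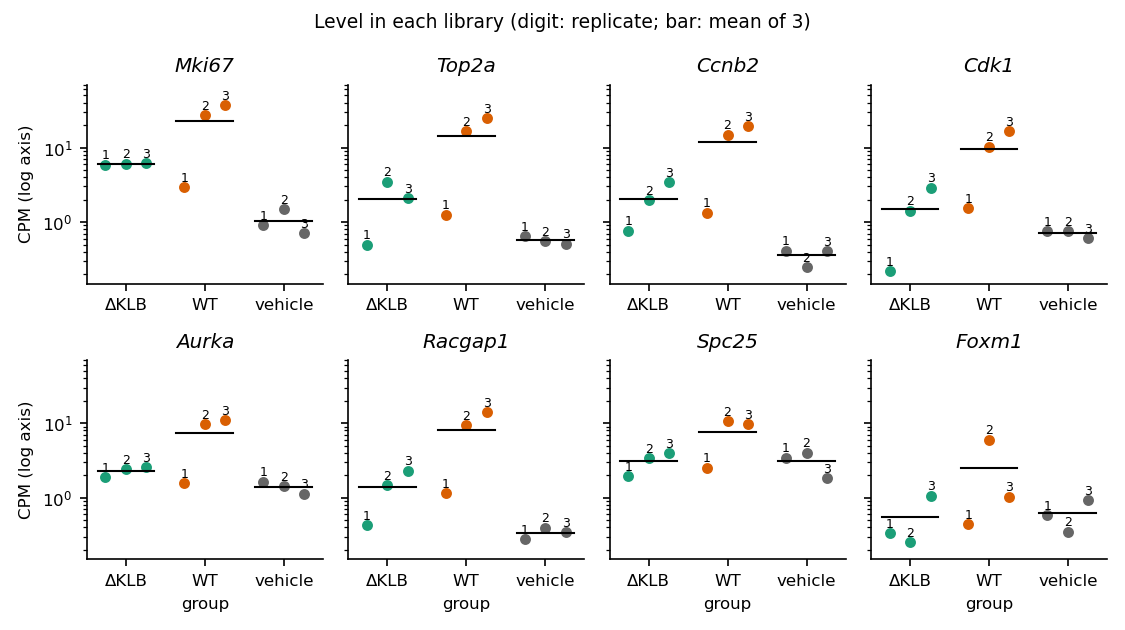
CPM on a log axis for 8 mitosis genes in each library (points, numbered by replicate), with the mean of 3 libraries as a bar. Mki67 is even across FGF19ΔKLB libraries, between 5.87 and 6.13 CPM, and Foxm1 is high in FGF19WT library 2 alone, at 6.0 CPM.

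Among kinases and the chromosomal passenger complex, Plk1, the polo-like kinase of mitotic entry and spindle assembly, had 0.279, 1.23 and 1.87 CPM in FGF19ΔKLB libraries, 0.747, 9.56 and 14.3 CPM in FGF19WT libraries, and 0.0401, 0.293 and 0.448 CPM in vehicle libraries. Aurka, the spindle pole kinase, had 1.89, 2.41 and 2.56 CPM in FGF19ΔKLB libraries, 1.55, 9.62 and 11.0 CPM in FGF19WT libraries, and 1.64, 1.43 and 1.13 CPM in vehicle libraries. FGF19WT library 1 lay among the vehicle libraries for Aurka, while all FGF19ΔKLB libraries lay above them. Aurkb, the kinase of the passenger complex, had 0.279, 0.523 and 0.868 CPM in FGF19ΔKLB libraries, 0.733, 3.87 and 5.88 CPM in FGF19WT libraries, and 0.160, 0.234 and 0.230 CPM in vehicle libraries. Its change with FGF19WT was 4.06 (SE 0.79, edgeR adjusted p = 0.112). Incenp, the scaffold of that complex, had 1.67, 2.86 and 3.10 CPM in FGF19ΔKLB libraries, 1.47, 7.09 and 10.5 CPM in FGF19WT libraries, and 1.75, 1.61 and 1.47 CPM in vehicle libraries. Its change with FGF19WT was 1.98, below the median of the members, and Birc5 (survivin), the third subunit measured, gave 2.34. Tpx2, which activates Aurka, Melk and Pbk completed the group, and each was highest in FGF19WT libraries 2 and 3.

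Checkpoint and anaphase genes act in opposite ways on the anaphase-promoting complex. Bub1b, the checkpoint kinase BubR1 that holds it back, had 0.279, 1.03 and 0.557 CPM in FGF19ΔKLB libraries, 1.27, 3.63 and 6.36 CPM in FGF19WT libraries, and 0.254, 0.703 and 0.409 CPM in vehicle libraries. Cdc20, its activator, had 0.308, 1.82 and 3.31 CPM in FGF19ΔKLB libraries, 1.52, 18.5 and 19.8 CPM in FGF19WT libraries, and 0.467, 0.703 and 0.371 CPM in vehicle libraries. Ube2c, the ubiquitin-conjugating enzyme that works with it, had 0.528, 1.70 and 1.92 CPM in FGF19ΔKLB libraries, 0.718, 14.3 and 20.2 CPM in FGF19WT libraries, and 0.427, 0.615 and 0.320 CPM in vehicle libraries. Inhibitor and activators were thus both highest in FGF19WT libraries 2 and 3. Their changes with FGF19WT were 3.04 (Bub1b, SE 0.73) and 4.69 (Cdc20, SE 1.10), both with an edgeR adjusted p of 0.125. Bub1 and Ttk (Mps1), checkpoint kinases, were at 2.02 to 3.95 CPM in FGF19WT libraries 2 and 3, against 0.0 to 0.243 CPM in vehicle.

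At the kinetochore, Cenpa, the histone H3 variant of centromeres, had 3.17, 3.62 and 5.55 CPM in FGF19ΔKLB libraries, 1.99, 11.5 and 16.4 CPM in FGF19WT libraries, and 1.76, 3.34 and 2.15 CPM in vehicle libraries. Cenpf, a large kinetochore protein, had 0.220, 0.972 and 1.05 CPM in FGF19ΔKLB libraries, 1.03, 7.56 and 8.64 CPM in FGF19WT libraries, and 0.0, 0.176 and 0.409 CPM in vehicle libraries. With FGF19WT the change of Cenpf was 4.86 (SE 1.31) and that of Cenpa was 2.04 (SE 0.66). Subunits of the NDC80 complex, which couples kinetochores to microtubules, differed among themselves. Spc25 had the smallest change of all members, at 1.3 (SE 0.55, edgeR adjusted p = 0.25), and already stood at 1.84 to 4.01 CPM in vehicle. Ndc80 had 0.176, 0.419 and 0.377 CPM in FGF19ΔKLB libraries, 0.117, 1.33 and 1.42 CPM in FGF19WT libraries, and 0.0534, 0.0 and 0.0768 CPM in vehicle libraries. Nuf2, its partner in that complex, and Cenpe, a kinetochore motor, lay at 0.0587 to 0.672 CPM with FGF19ΔKLB, at 3.55 to 6.36 CPM in FGF19WT libraries 2 and 3, and at 0.154 to 0.347 CPM with vehicle.

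Among spindle motors, Kif11, which pushes spindle poles apart, had 0.675, 0.972 and 1.69 CPM in FGF19ΔKLB libraries, 0.718, 6.01 and 10.9 CPM in FGF19WT libraries, and 0.641, 0.615 and 0.537 CPM in vehicle libraries. Kif4, a chromokinesin, had 0.0587, 0.628 and 0.442 CPM in FGF19ΔKLB libraries, 0.176, 3.45 and 5.54 CPM in FGF19WT libraries, and 0.360, 0.454 and 0.102 CPM in vehicle libraries. Both treated groups had a library of Kif4 within the vehicle range or below it. Kif15, a motor that backs up Kif11, was the other member lower with FGF19ΔKLB, at 0.161, 0.194 and 0.197 CPM, with 0.132, 1.27 and 2.23 CPM in FGF19WT libraries and 0.107, 0.337 and 0.205 CPM in vehicle libraries. Its change for FGF19ΔKLB was -0.23 (SE 0.88, edgeR adjusted p = 0.973). Kif2c, which shortens microtubules, Hmmr and Nusap1, spindle microtubule proteins, lay at 0.117 to 1.51 CPM with FGF19ΔKLB, at 6.84 to 10.1 CPM in FGF19WT libraries 2 and 3, and at 0.192 to 1.07 CPM with vehicle.

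Cytokinesis genes act on the cleavage furrow and the midbody. Racgap1, the centralspindlin subunit that steers RhoA at the furrow, had 0.425, 1.47 and 2.29 CPM in FGF19ΔKLB libraries, 1.14, 9.41 and 14 CPM in FGF19WT libraries, and 0.280, 0.395 and 0.345 CPM in vehicle libraries. It was above vehicle in 6 of 6 treated libraries, with changes of 2.03 (SE 0.87, edgeR adjusted p = 0.589) for FGF19ΔKLB and 4.58 (SE 0.95, adjusted p = 0.125) for FGF19WT. Anln, the furrow scaffold anillin, had 0.161, 0.852 and 0.901 CPM in FGF19ΔKLB libraries, 0.498, 4.47 and 5.04 CPM in FGF19WT libraries, and 0.254, 0.161 and 0.461 CPM in vehicle libraries. Ect2, the RhoA activator of the furrow, Kif23, the motor subunit of centralspindlin, and Cep55, a midbody protein, reached 1.78 to 8.29 CPM in FGF19WT libraries 2 and 3, against at most 0.835 CPM in vehicle. Prc1, which bundles midzone microtubules, and the motor Kif20a were among the 6 members whose level was not higher in FGF19WT library 3 than in library 2, with Foxm1, Melk, Bub1 and Spc25.

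Per length, in FPKM, the order of the members differed between libraries. In FGF19WT libraries 2 and 3 levels were highest for Ccnb2 (10.1 and 12.1 FPKM), Cdc20 (10.4 and 10.1), Ube2c and Plk1 (4.56 and 6.17). In FGF19WT library 1 they were highest for Ccnb2 (0.776 FPKM), Cdc20 (0.715), Birc5 (0.695) and Spc25 (0.690), while Plk1 stood at 0.301 and Ube2c at 0.244. With vehicle, mean levels were highest for Spc25 (0.904 FPKM), Aurka (0.518), Birc5 (0.492) and Cenpa (0.380). These 4 members highest in vehicle had FGF19WT changes of 1.3 to 2.4, below the median of 3.78. The vehicle level is also the base of these changes, so choosing members by it favours smaller changes.

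FGF19ΔKLB against FGF19WT gave negative changes for all 40 members, with a median log2 fold change of -2.54. None was called by edgeR over 9 libraries (0.0% of all genes were called lower), and 30 stood at an unadjusted p under 0.05 (7.96% of all). Without the 6 members of lowest vehicle counts, all 34 were negative, 28 stood at an unadjusted p under 0.05 and the median was -2.57. DESeq2 called 14 lower over 9 libraries (3.41% of all) and 6 over 6 (2.36% of all), edgeR over 6 called 0 (0.0% of all), and limma on log2(FPKM + 1) called 0 (0.0% of all). The smallest p was that of Ttk (-3.70, SE 0.92, edgeR adjusted p = 0.237), one of those 6 members. Mki67 gave -1.90 (SE 0.73, adjusted p = 0.347). The direction rests on FGF19WT libraries 2 and 3: without them the median was 0.47 and 32 of 40 members were positive. That sets 3 libraries against FGF19WT library 1 alone, which is assumed to vary like the other groups, so the 0 calls lower there (0.00502% of all genes) say little. Without FGF19WT library 1, the lowest of its group in these same genes, 34 were called lower (9.3% of all genes). Leaving out any other single library gave 0 calls. The groups did not overlap, with FGF19ΔKLB lower, in 2 members, against 6.39% of all genes. This comparison shares its libraries with the other comparisons.

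Other cell cycle genes were followed for comparison. Of 81 further mitosis genes, 73 had positive changes with FGF19WT, with a median of 1.88. There edgeR called 0, with 46 higher at an unadjusted p under 0.05 (11.7% of all genes), while DESeq2 called 36 higher (6.29% of all). With FGF19ΔKLB, 61 were positive, with a median of 0.44, edgeR called 0 (5 higher at an unadjusted p under 0.05, 4.64% of all), and DESeq2 called 1 higher (1.0% of all) and 1 lower (1.04% of all). Of 40 tested DNA replication genes, 32 were positive with FGF19WT, with a median of 0.42. Rrm2, the ribonucleotide reductase subunit that supplies deoxynucleotides, had 1.26, 2.81 and 3.08 CPM in FGF19ΔKLB libraries, 1.89, 15.1 and 19.1 CPM in FGF19WT libraries, and 1.34, 1.76 and 1.48 CPM in vehicle libraries. Pcna, the sliding clamp of replication, stayed between 22.4 and 27.8 CPM in all 9 libraries. Of 18 genes of MuvB, E2F and pocket proteins, the median change with FGF19WT was 0.06, and Mybl2, which encodes B-Myb, had 0.352, 0.583 and 1.26 CPM in FGF19ΔKLB libraries, 0.659, 0.703 and 0.551 CPM in FGF19WT libraries, and 0.708, 0.703 and 0.601 CPM in vehicle libraries. The differences between these lists were not tested.

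**Figure D5:**
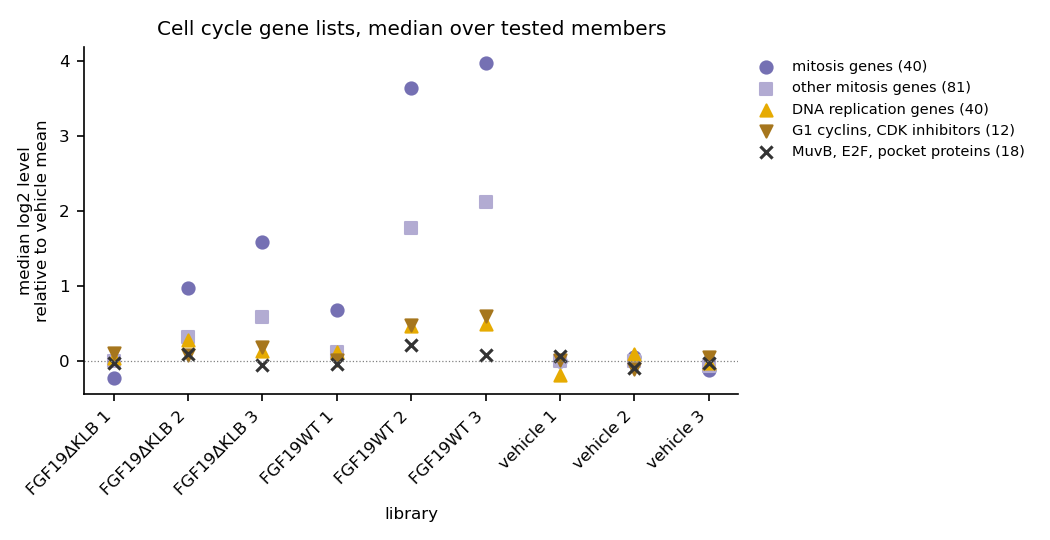
Median log2 level relative to the vehicle mean over the tested genes of each list, for each library. In FGF19WT libraries 2 and 3 the mitosis genes stand at 3.65 and 3.98, and replication genes at 0.47 and 0.49.

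Markers of other cell types moved with some of these libraries. The 10 Kupffer cell and macrophage markers summed to 220, 275 and 233 CPM in FGF19ΔKLB libraries, to 247, 106 and 31.9 CPM in FGF19WT libraries, and to 226, 298 and 366 CPM in vehicle libraries. In FGF19WT libraries 2 and 3 their median log2 level relative to the vehicle mean was -2.83 and -4.02, against -0.04 and -0.06 for all tested genes. The Kupffer cell marker Timd4 was at 0 in both, while the general macrophage markers Cd68 (13.2 CPM) and Lyz2 (60.8 CPM) were not low in FGF19WT library 2. The 8 sinusoidal endothelial markers summed to 103, 103 and 70.1 CPM in FGF19ΔKLB libraries, to 161, 43.1 and 24.5 CPM in FGF19WT libraries, and to 149, 146 and 127 CPM in vehicle libraries. The 8 B and plasma cell markers summed to 31.0, 70.1 and 37.8 CPM in FGF19ΔKLB libraries, to 30.3, 6.08 and 4.03 CPM in FGF19WT libraries, and to 246, 117 and 103 CPM in vehicle libraries. Both sums were thus lowest in FGF19WT libraries 2 and 3. The 8 stellate cell markers were mixed, with sums of 223, 246 and 217 CPM for FGF19WT, against 255 to 302 CPM for vehicle. In FGF19WT library 2, 3 of them lay above every vehicle library and 4 below, and in library 3 it was 1 and 7. Reln rose to 175 and 212 CPM there (vehicle 36.2 to 44.6), while Dcn fell to 5.03 and 0.769 CPM (vehicle 156 to 186). The 8 cholangiocyte markers summed to 47.6, 55.2 and 40.6 CPM for FGF19WT, against 63.6 to 81.7 CPM for vehicle. The 8 neutrophil and myeloid precursor markers summed to 18.1, 194 and 9.06 CPM in FGF19ΔKLB libraries, to 8.06, 2.69 and 1.84 CPM in FGF19WT libraries, and to 3.0, 30 and 29.6 CPM in vehicle libraries. They were thus highest in FGF19ΔKLB library 2, where Mpo stood at 15.8 CPM and Elane at 5.14 CPM, and lowest in the FGF19WT libraries in which mitosis genes were highest. The 8 erythroid markers measured summed to 438, 197 and 1770 CPM in FGF19ΔKLB libraries, to 178, 511 and 800 CPM in FGF19WT libraries, and to 341, 485 and 339 CPM in vehicle libraries, and 4 globin genes made up most of these sums. Alas2, the first enzyme of erythroid heme synthesis, was instead lower in both treated groups, at 9.99 to 26.3 CPM with FGF19ΔKLB and 16.3 to 23.9 CPM with FGF19WT, against 41.8 to 70.9 CPM with vehicle. Klf1, an erythroid transcription factor, had 4.09, 0.308 and 0.842 CPM in FGF19WT libraries, against 1.76 to 4.04 CPM with vehicle. T and NK cell markers summed to 2.10 to 4.19 CPM with FGF19ΔKLB, to 1.78 to 4.35 CPM with FGF19WT and to 9.69 to 19.8 CPM with vehicle. The 10 hepatocyte markers summed to 216000 to 314000 CPM with FGF19ΔKLB, to 218000, 113000 and 122000 CPM in FGF19WT libraries, and to 113000 to 173000 CPM with vehicle, mostly from Alb, and went both ways. In FGF19WT libraries 2 and 3 the median hepatocyte marker stood at a log2 level of -0.58 and -0.56 relative to the vehicle mean. All tested genes had medians of -0.04 and -0.06 there. Cps1, the first enzyme of the urea cycle, had 2840, 40.1 and 32.9 CPM in FGF19WT libraries, against 1160 to 1900 CPM with vehicle, and Serpina1c had 6220, 1170 and 996 CPM, against 3590 to 3790 CPM. Apoa1, by contrast, had 10800, 11100 and 17800 CPM in FGF19WT libraries, against 5190 to 9290 CPM with vehicle. The part of these shifts in the levels of the mitosis genes was not tested.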

How the data were processed

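Liver RNA of 9 libraries was profiled, 3 per group. The authors deposited expected counts and FPKM values for each gene. Bowtie 0.12.2, HISAT2 2.0 and StringTie 1.3.0 are named in the submitters' processing notes, without their roles. Those notes give mm8, but positions match GENCODE M21 on GRCm38. Strand use in counting is not given in the sources used here, and 8 members overlap a protein-coding gene (Ccna2, Foxm1, Cdc20, Ube2c, Kif4, Nusap1, Prc1 and Kif20a). Low counts piled up at multiples of 4, which held 3.55 to 4.45 times as many genes as neighbouring values. If 1 read pair gives 4 counts, 16.3 to 18.3 M read pairs stand behind each library, a depth inferred and not stated in the sources used here.

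The main test used edgeR 4.0.16 (R 4.3.3), as a robust quasi-likelihood model with TMM factors and group as the only term, over all 9 libraries and genes passing filterByExpr. A gene was called at a Benjamini-Hochberg adjusted p under 0.05 over all genes tested. Alternatives were the fit of the 6 libraries compared, DESeq2 1.42.0, limma 3.58.1 on log2(FPKM + 1) and log2(FPKM + 0.1), other filters and size factors, counts divided by 4, and leaving out libraries. The block and leave-one-out fits over 6 libraries were added after the data were seen. The fits were tested on simulated data, drawn with edgeR's own estimates of spread, equal in every group. There edgeR and limma kept within a limit on false calls set looser than the threshold, and DESeq2 did not. Since the spread differs between these groups, this cannot decide between the tools. The members and lists were chosen with earlier results of these data known. Genes named in full cover each role group, with the smallest p per comparison and any member of the minority sign added.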

Additional observations from a re-analysis of the deposited data

How the results depend on the processing

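Counts of called members moved with the libraries and the tool. For FGF19ΔKLB over vehicle the 0 calls became 1 over 6 libraries, 1 with DESeq2, 3 with DESeq2 over 6 libraries and 1 without FGF19WT libraries 2 and 3, and leaving out 1 library gave 0 to 1. For FGF19WT over vehicle they became 35 with DESeq2 and 33 with DESeq2 over 6 libraries, and leaving out 1 library gave 0 to 38, or 0 to 39 over 6 libraries (39 without FGF19WT library 1, against 12.4% of all genes). For FGF19ΔKLB over FGF19WT, lower calls became 14 with DESeq2 and 6 with DESeq2 over 6 libraries, and leaving out 1 library gave 0 to 34. In both comparisons with FGF19WT, leaving out 1 library gave calls only when FGF19WT library 1 was the one left out. Medians shrank to 0.13, 0.97 and -0.88 in limma on log2(FPKM + 1), whose pseudocount shrinks low genes. Without FGF19WT libraries 2 and 3 the median was 0.95 for FGF19WT over vehicle and reversed to 0.47 for FGF19ΔKLB over FGF19WT, and the cause was not tested. There, 32 members reversed over FGF19WT, among them Mki67 (1.04), Ccnb2 (0.62) and Top2a (0.69), and 10 reversed for FGF19WT over vehicle: Cenpa (-0.28), Kif4 (-0.79), Incenp (-0.13), Foxm1 (-0.49), Spc25 (-0.31), Cenpe (-2.19), Ect2 (-0.77), Kif15 (-0.70), Nusap1 (-0.17) and Bub1, which had 0 counts in FGF19WT library 1. For FGF19ΔKLB over vehicle, leaving out 1 library left 34 to 39 positive and reversed 9 members in all: Hmmr, Nusap1, Prc1, Spc25, Ttk, Bub1b (-0.12 to 0.91), Kif4 (-0.29 and -0.11 to 0.81), Foxm1 (-1.06 to 0.23, with 0.17 and 0.08 among them) and Kif15 (-0.55 to 0.24). Spc25, at 0.0, also turned sign with DESeq2, its size factors and limma. Promoter matches before the start alone were 14 for TTTGAA and 11 for both motifs.

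Deviations of same-numbered libraries from their group means had correlations of -0.07 to 0.18, against -0.2 to 0.15 for other pairs. With 3 libraries per group, such weak correlations cannot settle whether the numbers pair libraries. The summed level of the members rose from library 1 to library 3 in both treated groups, and not with vehicle. With the replicate number as a block, 0 members were called in each comparison, the medians were 0.96, 3.26 and -2.32, and for FGF19ΔKLB over vehicle 32 of 40 were positive, against 38 without it. The 6 that reversed were Cenpe, Hmmr, Prc1, Spc25, Ttk and Kif4 (-0.48). Over 6 libraries the block left 1 call, Mki67. Low counts limit what can be read from the 6 members with 36 counts or fewer in vehicle.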

Other observations

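G1 genes, which act before the cell cycle commits to replication, gave a median log2 fold change of 0.18 with FGF19ΔKLB and of 0.53 with FGF19WT over 12 tested genes, and edgeR called 0 in both. At an unadjusted edgeR p under 0.05, 0 stood higher with FGF19ΔKLB (4.64% of all genes) and 2 with FGF19WT (11.7% of all genes). DESeq2 called 0 in both, where 1.0% and 6.29% of all genes were called higher. Ccnd1, the cyclin D1 of G1 entry, had 16.3, 37.1 and 39.9 CPM in FGF19ΔKLB libraries, 19.5, 49.6 and 109 CPM in FGF19WT libraries, and 15.1, 25.6 and 17.9 CPM in vehicle libraries. Its levels were highest in the same FGF19WT libraries as those of the mitosis genes. Cdkn1a, the CDK inhibitor p21, had 22.6, 10.8 and 41.7 CPM in FGF19ΔKLB libraries, 6.53, 54.0 and 34.8 CPM in FGF19WT libraries, and 28.7, 15.9 and 15 CPM in vehicle libraries. E2f8, a repressor among the E2F factors, had 1.01, 1.6 and 0.737 CPM in FGF19ΔKLB libraries, 0.733, 3.08 and 2.21 CPM in FGF19WT libraries, and 2.87, 3.09 and 3.26 CPM in vehicle libraries. The FGF19ΔKLB libraries lay below vehicle for E2f8, with a change of -1.46 (SE 0.52, edgeR adjusted p = 0.50). E2f7, its close relative, was at or below 0.726 CPM in all 9 libraries.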
